A study of Mus musculus with 40 samples.

Results

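Glucocorticoid hormones act on the brain through a pair of nuclear receptors, and 10 genes of this system were followed through every group of a study of oral antibiotics and morphine in mice. They are the glucocorticoid receptor gene Nr3c1, the mineralocorticoid receptor gene Nr3c2, and the target genes Fkbp5, Tsc22d3, Sgk1, Errfi1, Hif3a, Zbtb16, Plin4 and Sult1a1. The list was drawn up with earlier results of these data known, and its genes were picked out by symbol from the 56980 genes counted. All 10 were found, and all 10 passed the filter on low counts that left 17880 genes for testing. Polyadenylated RNA was sequenced from female wild-type C57BL/6J mice, an inbred laboratory strain, that entered the experiment as adults on postnatal day 55 or as adolescents on postnatal day 25. At each age there were 4 groups of 5 libraries: oral antibiotics with subcutaneous morphine at 15 mg/kg, antibiotics with saline, water with morphine, and water with saline, injected for 5 days. The groups are named below by drink and injection, as antibiotics-morphine or water-saline. The labels name neither the antibiotics nor the hour of tissue collection, give no hormone level, and do not say whether each library is a separate mouse, so p-values measure the spread between libraries, which may be partly technical. The label of the tissue is brain and the title of the series names the medial prefrontal cortex. Slc17a7, the vesicular transporter of cortical excitatory neurons, was read at 1507 to 1991 CPM (counts scaled to library depth) over the 40 libraries, the choroid plexus transcript Ttr at 0 to 0.867 CPM and the striatal dopamine receptor Drd1 at 4.74 to 16.2 CPM.

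Corticosterone, the main glucocorticoid of mice, binds Nr3c2 with high affinity and Nr3c1 with lower affinity, so that Nr3c1 is engaged mainly when hormone levels are high, as after stress or at the daily peak. Before it binds hormone, Nr3c1 sits in the cytoplasm with heat shock proteins and immunophilins, and afterwards it enters the nucleus and binds a palindromic DNA element, the glucocorticoid response element. Fkbp5 is both a target and an inhibitor of this cycle, because its protein, an immunophilin, lowers the receptor's affinity for hormone. In the prefrontal cortex the receptor takes part in the feedback that ends the stress response.

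The promoters of the targets differ in whether they carry that element close to a transcription start. The window of 250 bases upstream of a start was searched on both strands for the full palindrome, which is AGAACA, any 3 bases and TGTTCT, for its half-site TGTTCT, and for the E-box CACGTG, which clock and other basic helix-loop-helix factors bind. RefSeq (GRCm38.p6) windows were held for 8 of the 10 genes, 16 windows in all, with no entry for Nr3c1 and Zbtb16. The full palindrome was present in 3 of 32851 windows of all genes (0.00913%), 1 of which belongs to Sgk1. The half-site was in 5 of the 16 windows, against 16.1% of all windows. By gene it was in 3 of the 8 (Sgk1, Sult1a1 and Tsc22d3), against 18.2% of all genes. The E-box was in 2 of the 16 windows, against 6.02% of all windows. By gene it was in 2 of the 8 (Fkbp5 and Sgk1), against 6.86% of all genes. A gene with several windows, as Sgk1 has, has more chances of a match. The Sgk1 window with the palindrome is shown beside those of Fkbp5 and Hif3a. In adolescents Fkbp5 and Hif3a were the 2 genes called both for morphine on antibiotics and for antibiotics under morphine. Capitals mark matches: in Sgk1 an E-box that shares its last bases with a half-site and, from base -189 on, the full palindrome, in Fkbp5 an E-box, and in Hif3a none. A match is a run of letters and not a binding site, and no match says only that these letters are not in this window.

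Sgk1, chr10:21993640-21993889, plus strand: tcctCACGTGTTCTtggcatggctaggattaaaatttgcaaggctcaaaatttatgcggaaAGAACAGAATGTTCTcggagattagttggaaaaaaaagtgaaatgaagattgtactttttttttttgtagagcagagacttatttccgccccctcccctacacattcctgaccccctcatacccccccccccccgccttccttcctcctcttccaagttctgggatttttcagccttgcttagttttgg

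Fkbp5, chr17:28486150-28486399, minus strand: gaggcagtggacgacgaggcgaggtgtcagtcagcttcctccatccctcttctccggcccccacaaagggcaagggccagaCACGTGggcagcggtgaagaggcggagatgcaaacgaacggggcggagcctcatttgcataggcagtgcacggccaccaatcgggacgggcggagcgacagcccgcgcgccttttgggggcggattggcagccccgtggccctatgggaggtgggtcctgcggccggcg

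Hif3a, chr7:17062428-17062677, minus strand: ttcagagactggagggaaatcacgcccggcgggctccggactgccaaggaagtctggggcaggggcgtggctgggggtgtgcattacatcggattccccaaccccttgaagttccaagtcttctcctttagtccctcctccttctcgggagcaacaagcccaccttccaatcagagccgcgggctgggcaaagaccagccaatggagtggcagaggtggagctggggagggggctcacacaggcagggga

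Depth was 8.64 to 12.1 M counts per library (M for mega), so that 3 counts, the limit that a count of 0 allows, stood for 0.248 to 0.347 CPM; these limits cover counting error only. The least abundant of the 10 genes, Plin4, had 5 to 114 counts per library and Nr3c1, the one with the most counts, had 707 to 1187. Per kilobase of exon, the mean level over all libraries was 12.9 CPM for Nr3c1 and 4.64 CPM for Nr3c2. On the same scale of levels Zbtb16 stood at 12.3 CPM, Tsc22d3 at 10.2, Sgk1 at 9.81, Errfi1 at 7.29, Sult1a1 at 5.51, Fkbp5 at 3.02, Hif3a at 1.31 and Plin4 at 0.536 CPM. Exons of Nr3c2, Sult1a1 and Plin4 overlap those of the opposite-strand genes Gm10649, Sgf29 and Hdgfl2; no source used here gives the strand setting, so the values of these 3 genes are uncertain. A pair of adolescent libraries stood apart, each by a different measure. Adolescent antibiotics-morphine replicate 5 had a median correlation of -0.02 with the other libraries of its group, across genes and after the mean of all libraries was removed, where the other 4 had 0.23 to 0.3. Adolescent water-saline replicate 5 had the highest summed astrocyte markers of its group, 6704 CPM against 4426 to 6032 CPM, and the highest mural and fibroblast markers, 506 CPM against 261 to 371 CPM. By the correlation it did not stand apart, at 0.07 against 0.04 to 0.06 in its group. In the adult groups the correlation was -0.01 to 0.16. Adult water-morphine replicate 4 was also high in astrocyte markers, 5895 CPM against 4483 to 4627 CPM in its group. Its mural and fibroblast markers, 325 CPM, lay among the others, 244 to 335 CPM. It is not part of the pair left out below. In bulk tissue, more cells of a type and more RNA per cell cannot be told apart.

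Most of the 10 genes were highest where antibiotics and morphine were given together. At each age 8 of the 10, Nr3c2 among them, had their highest group mean in the antibiotics-morphine group. Of all genes tested 24.9% did so in adults and 29% in adolescents. Nr3c1 was highest in water-morphine libraries at both ages. Of the targets, Sgk1 in adults was highest in antibiotics-saline libraries (52.3 CPM, against 49.2 in antibiotics-morphine). Errfi1 in adolescents was highest in water-morphine libraries (27.9 CPM, against 25.1). What morphine did in mice on antibiotics was asked by comparing the antibiotics-morphine with the antibiotics-saline group. What antibiotics did in mice on morphine was asked by comparing it with the water-morphine group. These 2 comparisons share their antibiotics-morphine libraries and are not independent. In adults, morphine on antibiotics raised 1 of the 10 genes (Fkbp5), where 0.213% of all genes tested were called at an adjusted p under 0.05 and 0.101% were called higher. Antibiotics under morphine raised 0 of the 10 in adults, where edgeR called 0.028% of all genes. At an unadjusted p under 0.05 were 7 of the 10, and 1434 of all 17880 genes. Of these 7, Nr3c1 was lower, at -0.17 on the log2 scale. DESeq2 called 3 of the 10 and limma-voom 2, and their shares of all genes called are not given here. In adolescents, morphine on antibiotics raised 3 of the 10 (Fkbp5, Hif3a and Zbtb16), where 2.92% of all genes were called and 1.58% were called higher. Antibiotics under morphine raised Fkbp5, Hif3a and Plin4 and lowered Nr3c1 in adolescents, 4 of the 10, where 7.56% of all genes were called, 3.54% higher and 4.02% lower. The median log2 fold change of the 10 in these comparisons was 0.33 and 0.27 in adults and 0.3 and 0.25 in adolescents, where the median over all genes was 0.00036, -0.0079, -0.0047 and -0.01.

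**Figure D1:**
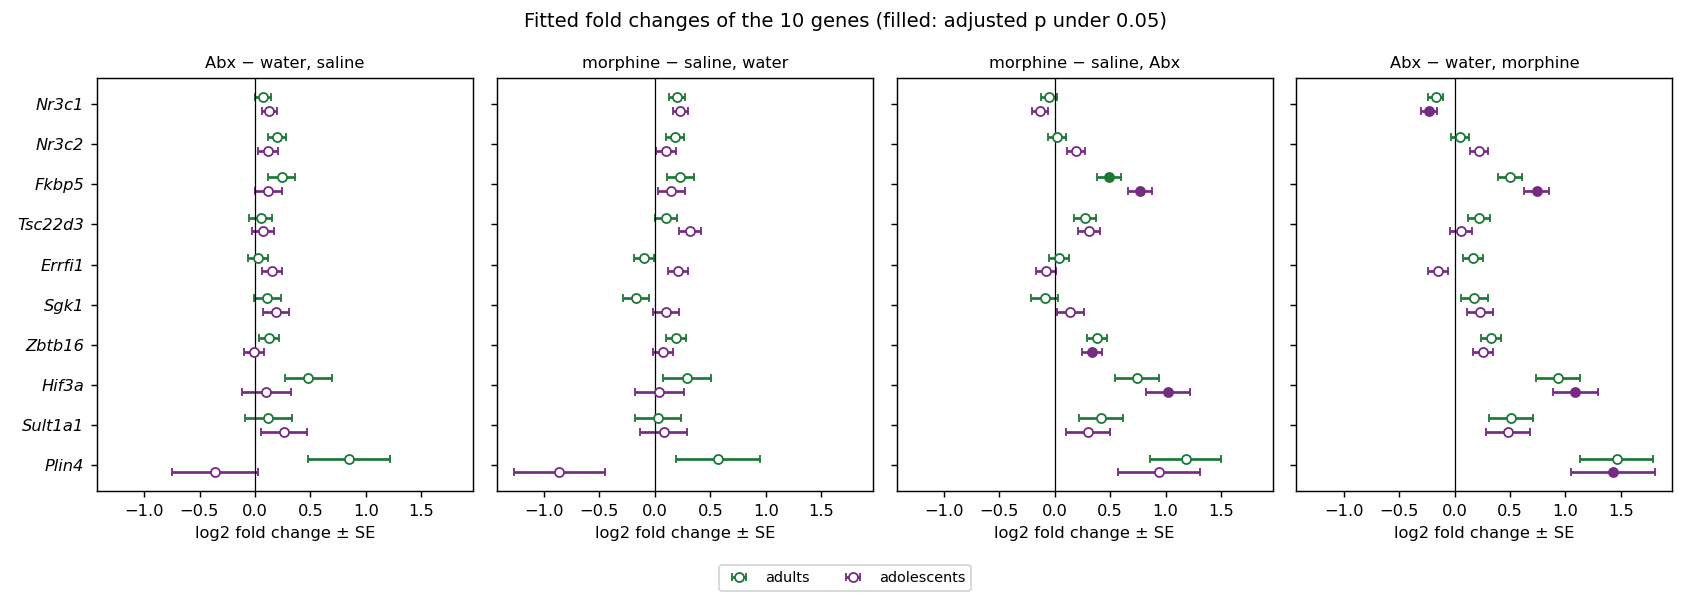
Fitted log2 fold changes with their SE for the 10 genes (down the page) in 4 comparisons (panels), adults in green and adolescents in purple; Abx stands for antibiotics and filled points passed the test at an adjusted p under 0.05. In the 2 panels to the right, which share the antibiotics-morphine libraries, Fkbp5, Hif3a and Plin4 lie right of 0 at both ages, and in the 2 to the left no point is filled.

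Counts of libraries show the same groups. For morphine on antibiotics, the libraries of both groups did not overlap, with antibiotics-morphine above, for Zbtb16 in adults (1 of 10, against 0.688% of all genes) and for Fkbp5 and Hif3a in adolescents (2 of 10, against 2.19%). For antibiotics under morphine they did not overlap for Fkbp5, Hif3a, Plin4 and Sult1a1 in adults (4 of 10, against 0.626%) and for Fkbp5, Hif3a, Plin4 and Nr3c2 in adolescents (4 of 10, against 2.46%). None of the 10 genes lay wholly below in either comparison at either age, where 0.671% and 0.811% of all genes did so in adults and 1.9% and 3.46% in adolescents.

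Markers of other cell types were read beside these results. The summed level of 10 striatal neuron markers was 212 to 236 CPM in adult antibiotics-morphine libraries, against 209 to 229 in antibiotics-saline, 188 to 211 in water-morphine and 192 to 213 in water-saline libraries. In adolescents it was 232 to 249 CPM in antibiotics-morphine libraries, against 204 to 232 in antibiotics-saline, 203 to 212 in water-morphine and 183 to 204 in water-saline libraries. The single striatal markers went both ways: for morphine on antibiotics 6 of 10 were positive with 0 called in adults (median 0.0068 on the log2 scale) and 4 of 10 were positive with 2 called higher in adolescents (median -0.03), and for antibiotics under morphine 6 of 10 with 0 called (0.05) and 5 of 10 with 2 called higher (0.08). The summed level of 12 oligodendrocyte markers was 853 to 1661 CPM in adult antibiotics-morphine libraries, against 837 to 1403 in antibiotics-saline, 1102 to 1620 in water-morphine and 1029 to 1133 CPM in water-saline libraries. In adolescents it was 1436 to 2157 CPM in antibiotics-morphine libraries, against 1212 to 1747 in antibiotics-saline, 1315 to 1577 in water-morphine and 1230 to 2279 CPM in water-saline libraries. In adolescents 11 of the 12 were positive for morphine on antibiotics (1 called higher; median 0.27), for antibiotics under morphine (0 called; 0.28) and for the interaction (0 called; 0.41); in adults 12, 2 and 1 of the 12 were positive (0 called; 0.14, -0.14 and -0.24). The summed level of 12 astrocyte markers was 4219 to 4759 CPM in adult antibiotics-morphine libraries, against 4043 to 5203 in antibiotics-saline, 4483 to 5895 in water-morphine and 4253 to 5140 CPM in water-saline libraries. In adolescents it was 4019 to 5126 CPM in antibiotics-morphine libraries, against 4197 to 4823 in antibiotics-saline, 4466 to 5101 in water-morphine and 4426 to 6704 CPM in water-saline libraries. No marker of these 3 lists was at 0 in all 40 libraries, and the part of these cells in the results of the glucocorticoid targets was not tested.

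Of the 2 receptor genes, Nr3c1, which encodes the glucocorticoid receptor, was lower in adolescent mice on morphine when they also had antibiotics. It was at 91.8, 87.7, 83.1, 79.2 and 104 CPM in antibiotics-morphine libraries, against 97.5, 107, 99.9, 109 and 109 CPM in adolescent water-morphine libraries. Of the 5 antibiotics-morphine libraries 4 lay below every water-morphine library, and replicate 5, the library that stood apart, lay among them. Nr3c1 fell by 0.23 ± 0.07 (SE) on the log2 scale (0.852-fold; edgeR adjusted p = 0.0356). The call was lost without adolescent water-morphine replicate 2, 4 or 5 or without antibiotics-morphine replicate 1, 2, 3 or 4, with an adjusted p between 0.0522 and 0.153. In adults the same comparison had 98.2, 105, 102, 103 and 90.1 CPM in antibiotics-morphine libraries, against 108, 112, 120, 101 and 120 CPM in water-morphine libraries, and the log2 fold change, -0.17 ± 0.07 (SE), did not pass (adjusted p = 0.506). Averaged over both ages Nr3c1 fell by 0.2 ± 0.05 on the log2 scale (SE; adjusted p = 0.00699), where 9.01% of all genes were called; the averages over ages were added after values had been seen.

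Morphine on antibiotics left Nr3c1 at a log2 fold change of -0.05 ± 0.07 in adults and -0.13 ± 0.07 in adolescents (SE; adjusted p = 0.954 and 0.36). On water, morphine had positive values that missed the threshold, 0.2 ± 0.07 in adults and 0.23 ± 0.07 in adolescents (SE; adjusted p = 0.229 and 0.17). The group means of Nr3c1 ran from 89.1 ± 9.4 CPM in adolescent antibiotics-morphine libraries to 112 ± 8.13 CPM in adult water-morphine libraries (SD, n = 5 each), and the other 6 groups lay between them; adolescent water-saline libraries, at 89.3 ± 12.2 CPM, were close to the lowest.

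Nr3c2, which encodes the mineralocorticoid receptor, had positive fold changes in all 8 comparisons of 1 exposure. In adolescents it was at 29.6, 32.9, 31.5, 31.7 and 29.9 CPM in antibiotics-morphine libraries, against 25, 23.3, 26.5, 26.1 and 24.5 CPM in water-saline libraries. These groups did not overlap, and Nr3c2 rose by 0.31 ± 0.08 (SE) on the log2 scale with both exposures against neither (1.24-fold; edgeR adjusted p = 0.0157). In adults it was at 32.8, 31.7, 34.2, 38 and 34 CPM in antibiotics-morphine libraries, against 26, 33.8, 25.3, 29.4 and 31.7 CPM in water-saline libraries, which overlap (0.22 ± 0.08; adjusted p = 0.182). Neither comparison that differs by 1 exposure called it: morphine on antibiotics gave 0.02 ± 0.08 in adults and 0.19 ± 0.08 in adolescents, and antibiotics under morphine gave 0.05 ± 0.08 in adults and 0.22 ± 0.08 in adolescents (SE; adjusted p between 0.1 and 0.982). Its antisense neighbour Gm10649, at group means of 1.41 to 2.67 CPM, was called in none of the 4.

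**Figure D2:**
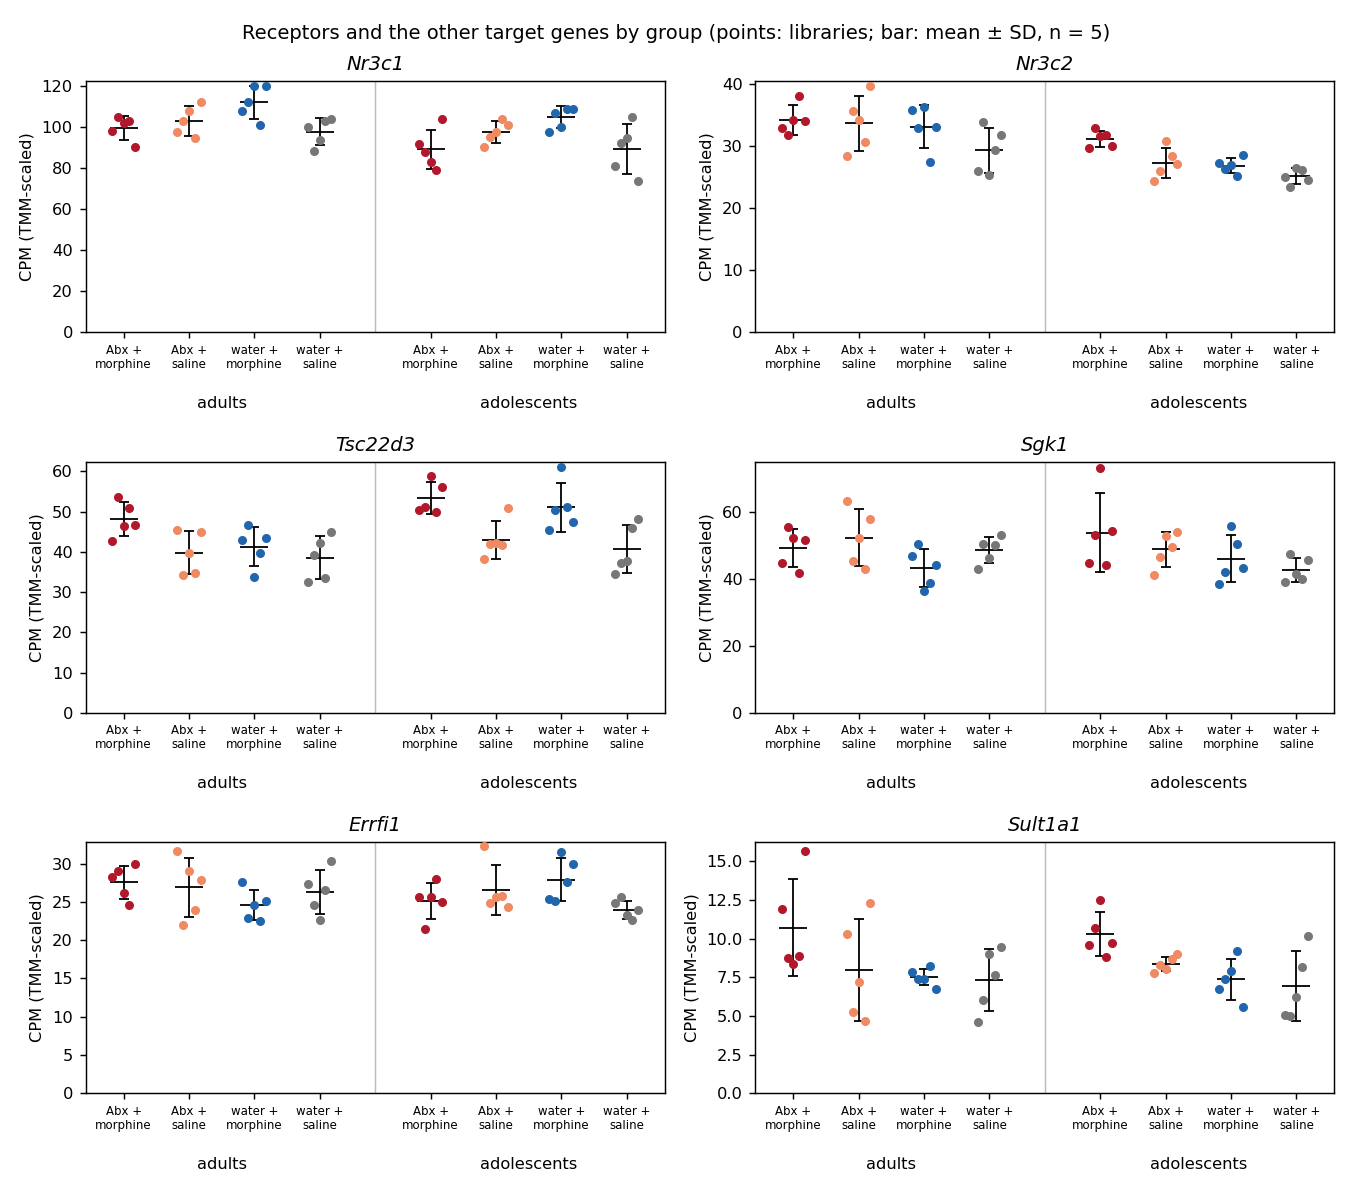
TMM-scaled CPM of the 2 receptor genes and of Tsc22d3, Sgk1, Errfi1 and Sult1a1 in the 8 groups, adults to the left and adolescents to the right in each panel; points are libraries, long bars are means and whiskers the SD of 5 libraries. Abx stands for antibiotics; Nr3c1 has its lowest means in adolescent antibiotics-morphine and water-saline libraries (89.1 and 89.3 CPM), and Sgk1 and Errfi1 overlap between all groups.

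Fkbp5, the inhibitory co-chaperone of the receptor, was the member called most often, in 3 of the 8 comparisons of 1 exposure at 1 age. Adult antibiotics-morphine libraries held 34.4, 42.6, 32.4, 34.7 and 47 CPM, against 26.3, 23.7, 26.1, 25.1 and 34.3 CPM in antibiotics-saline and 27, 28.2, 24.7, 29.4 and 25.2 CPM in water-morphine libraries. Adult water-saline libraries held 18.5, 25.2, 22.1, 24.2 and 24.6 CPM. In adults the antibiotics-morphine group overlapped with antibiotics-saline through 1 library, antibiotics-saline replicate 5 at 34.3 CPM, and with neither water group.

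Adolescent antibiotics-morphine libraries held 37.9, 45.2, 49, 46.2 and 30.3 CPM of Fkbp5, against 23.6, 20.7, 26.7, 25.6 and 26 CPM in antibiotics-saline and 22.7, 22.5, 26.2, 28.8 and 24.6 CPM in water-morphine libraries. Adolescent water-saline libraries held 24.3, 24.4, 18.4, 20.5 and 25.1 CPM. All 5 antibiotics-morphine libraries lay above the other 15 adolescent libraries, and replicate 5, which stood apart, was the lowest of them.

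Morphine on antibiotics raised Fkbp5 by 0.49 ± 0.11 in adults (1.41-fold; adjusted p = 0.0358) and by 0.77 ± 0.11 in adolescents (1.7-fold; adjusted p = 3.83e-05) on the log2 scale (SE, edgeR). The adolescent call held without any single library, at an adjusted p of at most 0.00033. The adult call was lost without antibiotics-saline replicate 1, 2, 3 or 4 or antibiotics-morphine replicate 2 or 5 (adjusted p between 0.0854 and 0.213), and when the 2 groups were fitted alone (0.0822). Antibiotics under morphine gave 0.5 ± 0.11 in adults (1.42-fold; adjusted p = 0.091) and raised Fkbp5 by 0.74 ± 0.11 in adolescents (1.67-fold; adjusted p = 1.8e-05, at most 0.000226 without any single library). The adult value passed with DESeq2 (adjusted p = 0.0305) and not with limma-voom, and over the alternatives its adjusted p ran from 0.000106 to 0.0909. With both exposures against neither, Fkbp5 rose by 0.74 ± 0.11 in adults and 0.89 ± 0.11 in adolescents (SE; adjusted p = 8.52e-05 and 5.07e-07).

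**Figure D3:**
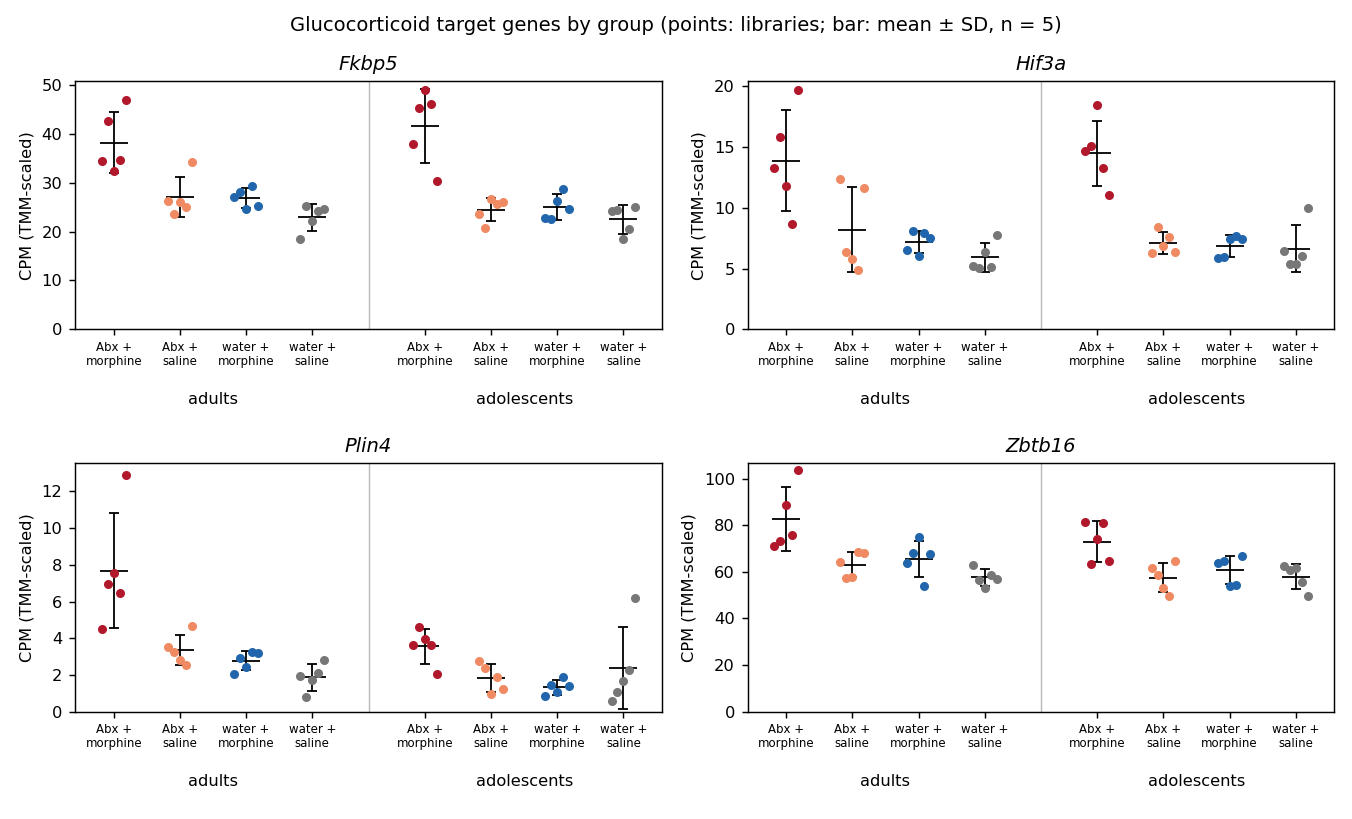
TMM-scaled CPM of Fkbp5, Hif3a, Plin4 and Zbtb16 in the 8 groups, adults to the left and adolescents to the right in each panel; points are libraries, long bars are means and whiskers the SD of 5 libraries. The antibiotics-morphine group has the highest mean of its age in all 4 panels, and the isolated grey Plin4 point at 6.2 CPM is adolescent water-saline replicate 5.

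Hif3a, which encodes a relative of the hypoxia-inducible factors that can oppose the other members of its family, followed Fkbp5. Adult antibiotics-morphine libraries held 13.3, 15.8, 11.8, 8.7 and 19.7 CPM, against 12.4, 6.38, 5.76, 4.91 and 11.6 CPM in antibiotics-saline and 6.53, 8.07, 6, 7.9 and 7.54 CPM in water-morphine libraries. Adult water-saline libraries held 5.25, 5.04, 6.38, 5.14 and 7.8 CPM. In adults only the antibiotics-saline libraries reached into the antibiotics-morphine range, with replicates 1 and 5.

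Adolescent antibiotics-morphine libraries held 14.7, 15.1, 18.5, 13.3 and 11.1 CPM of Hif3a, against 6.29, 8.47, 6.9, 7.63 and 6.41 CPM in antibiotics-saline and 5.84, 5.97, 7.46, 7.67 and 7.42 CPM in water-morphine libraries. Adolescent water-saline libraries held 6.42, 5.42, 5.36, 6 and 10 CPM. The lowest antibiotics-morphine library, at 11.1 CPM, lay above every other adolescent library. Morphine on antibiotics raised Hif3a by 1.02 ± 0.2 in adolescents (2.03-fold; adjusted p = 0.0021), and antibiotics under morphine raised it by 1.09 ± 0.2 (2.12-fold; adjusted p = 0.000497) on the log2 scale (SE, edgeR). Both calls held without any single library, at an adjusted p of at most 0.0113 and 0.00327.

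In adults the values of Hif3a had the same sign and did not pass, at 0.74 ± 0.2 for morphine on antibiotics (adjusted p = 0.135) and 0.93 ± 0.2 for antibiotics under morphine (adjusted p = 0.0815). Without antibiotics-saline replicate 1 the first passed (adjusted p = 0.0212), and without antibiotics-morphine replicate 4 both passed (0.0375 and 0.0176). Over the alternatives the second ran from an adjusted p of 1.49e-06 to 0.0826. With both exposures against neither, Hif3a rose by 1.22 ± 0.2 in adults and 1.12 ± 0.2 in adolescents (SE; adjusted p = 0.000388 and 0.000306). In that comparison 4 of the 10 genes were called in adults, all higher (1.19% of all genes called, 0.649% higher), and 5 in adolescents, all higher (6.94% called, 3.33% higher). The libraries did not overlap, with antibiotics-morphine above water-saline, for 4 of the 10 in adults (2.18% of all genes) and 5 in adolescents (2.65%). This comparison was added after values had been seen and shares libraries with the others.

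Zbtb16, a zinc finger transcription factor induced by glucocorticoids in human cells, moved less. Adult antibiotics-morphine libraries held 71, 73.4, 88.6, 75.9 and 104 CPM, against 64.4, 57.3, 58, 68.4 and 68 CPM in antibiotics-saline libraries, and the 2 groups did not overlap. Adolescent antibiotics-morphine libraries held 81.6, 63.5, 74.2, 81.2 and 64.6 CPM, against 61.7, 58.8, 52.9, 49.8 and 64.6 CPM in antibiotics-saline libraries, and these overlap between 63.5 and 64.6 CPM. Morphine on antibiotics gave 0.38 ± 0.09 in adults (1.31-fold; adjusted p = 0.0552) and raised Zbtb16 by 0.34 ± 0.09 in adolescents (1.27-fold; adjusted p = 0.0286) on the log2 scale (SE, edgeR). The adult value passed without antibiotics-morphine replicate 1 (adjusted p = 0.023). The adolescent call was lost without antibiotics-saline replicate 3 or 4 or antibiotics-morphine replicate 1, 3 or 4 (adjusted p between 0.0561 and 0.102).

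Antibiotics under morphine gave Zbtb16 0.33 ± 0.09 in adults (adjusted p = 0.227) and 0.26 ± 0.09 in adolescents (SE; adjusted p = 0.067); the adolescent value passed without water-morphine replicate 5 or antibiotics-morphine replicate 2 or 5 (adjusted p between 0.0218 and 0.0455). With both exposures against neither, it rose by 0.52 ± 0.09 in adults and 0.34 ± 0.09 in adolescents (SE; adjusted p = 0.000932 and 0.019). The adolescent call was lost without water-saline replicate 5 or antibiotics-morphine replicate 1 or 4 (adjusted p between 0.0601 and 0.0675).

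Tsc22d3 encodes GILZ, an anti-inflammatory leucine zipper protein. Adolescent antibiotics-morphine libraries held 50.4, 51.1, 58.8, 50 and 56.2 CPM, against 45.4, 50.3, 61, 51.1 and 47.4 CPM in water-morphine and 34.4, 37.3, 37.8, 45.9 and 48.2 CPM in water-saline libraries. In adolescents its mean was 53.3 CPM with antibiotics and morphine and 51 CPM with water and morphine, against 40.7 CPM with water and saline. With both exposures against neither it rose by 0.39 ± 0.1 (SE) on the log2 scale (1.31-fold; adjusted p = 0.00957). Morphine gave 0.31 ± 0.1 on antibiotics and 0.32 ± 0.1 on water in adolescents (SE; adjusted p = 0.0653 and 0.155), and the first passed in 5 of 8 alternatives, DESeq2 and limma-voom among them (0.0488 and 0.0232), and without antibiotics-saline replicate 5 (adjusted p = 0.023). The second passed with no filter on low counts (0.0183). In adults it gave 0.27 ± 0.1 on antibiotics and 0.1 ± 0.1 on water (SE; adjusted p = 0.477 and 0.768), and both exposures against neither gave 0.32 ± 0.1 (SE; adjusted p = 0.0922), which passed with limma-voom (0.024), when the 2 groups were fitted alone (0.0441) and with no filter (0.0163). Averaged over both ages, morphine on antibiotics raised Tsc22d3 by 0.29 ± 0.07 (SE; adjusted p = 0.00886), where 3.19% of all genes were called.

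The kinase gene Sgk1, which regulates ion channels and is the gene with the full palindrome, and Errfi1, a feedback inhibitor of the epidermal growth factor receptor, were called in none of the 8 comparisons of 1 exposure. The fold changes of Sgk1 lay between -0.17 ± 0.12 (adults, morphine on water) and 0.23 ± 0.12 (adolescents, antibiotics under morphine), and its smallest adjusted p was 0.246. Those of Errfi1 lay between -0.15 ± 0.09 (adolescents, antibiotics under morphine) and 0.21 ± 0.09 (adolescents, morphine on water), with a smallest adjusted p of 0.304 (log2 scale, SE, edgeR). The group means of Sgk1 spanned 42.7 ± 3.59 to 53.8 ± 11.8 CPM and those of Errfi1 24 ± 1.19 to 27.9 ± 2.79 CPM (SD, n = 5 each), a ratio of 1.26 and 1.16 between the highest and the lowest group.

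Plin4, which encodes a coat protein of lipid droplets, had the widest range of the 10 and the fewest counts. Adult antibiotics-morphine libraries held 4.5, 6.93, 7.56, 6.45 and 12.9 CPM, against 3.53, 3.24, 2.82, 2.56 and 4.65 CPM in antibiotics-saline and 2.03, 2.92, 2.42, 3.27 and 3.17 CPM in water-morphine libraries. Adult water-saline libraries held 1.92, 0.806, 1.74, 2.08 and 2.82 CPM. Among adults, antibiotics-saline replicate 5 at 4.65 CPM was the single library of another group above the lowest antibiotics-morphine library.

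Adolescent antibiotics-morphine libraries held 3.62, 4.63, 3.94, 3.62 and 2.03 CPM of Plin4, against 2.76, 2.35, 0.955, 1.88 and 1.24 CPM in antibiotics-saline and 0.835, 1.45, 1.05, 1.89 and 1.4 CPM in water-morphine libraries. Adolescent water-saline libraries held 0.574, 1.08, 1.68, 2.28 and 6.2 CPM. The 6.2 CPM of water-saline replicate 5, which stood apart by its marker levels, lay above every adolescent antibiotics-morphine library.

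Antibiotics under morphine raised Plin4 by 1.43 ± 0.38 in adolescents (2.7-fold; adjusted p = 0.016) on the log2 scale, and gave 1.46 ± 0.33 in adults (2.76-fold; adjusted p = 0.1; SE, edgeR). The adolescent call was lost without antibiotics-morphine replicate 2 (adjusted p = 0.0575), and the adult value passed with DESeq2 (0.0359) and limma-voom (0.0164), with a range of 4.56e-06 to 0.104 over the alternatives. Morphine on antibiotics gave 1.18 ± 0.32 in adults and 0.94 ± 0.37 in adolescents (SE; adjusted p = 0.156 and 0.171). With both exposures against neither, Plin4 rose by 2.03 ± 0.34 in adults (4.09-fold; adjusted p = 0.000546). In adolescents that value was 0.58 ± 0.36 (adjusted p = 0.358), and without water-saline replicate 5 it was 1.32 (adjusted p = 0.00921). Hdgfl2, whose exons overlap those of Plin4 on the other strand and which had more counts, was at 0.05 ± 0.08 in adults and 0.2 ± 0.07 in adolescents for antibiotics under morphine and was not called (SE; adjusted p = 0.916 and 0.0777).

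Sult1a1 encodes a sulfotransferase of phenols and catechols. Adult antibiotics-morphine libraries held 11.9, 8.74, 8.37, 8.89 and 15.7 CPM, against 7.82, 7.39, 7.39, 8.22 and 6.77 CPM in water-morphine libraries, and the groups did not overlap. Adolescent antibiotics-morphine libraries held 9.62, 10.7, 12.5, 8.81 and 9.72 CPM, against 6.76, 7.41, 7.88, 9.17 and 5.59 CPM in water-morphine libraries, which overlap by 1 library. Antibiotics under morphine gave 0.51 ± 0.2 in adults and 0.48 ± 0.2 in adolescents (SE; adjusted p = 0.493 and 0.141), and averaged over both ages Sult1a1 rose by 0.49 ± 0.14 (SE; 1.41-fold; adjusted p = 0.024). That call was lost without adult antibiotics-morphine replicate 5 (adjusted p = 0.0586). Sgf29, on its other strand, was not called in this comparison at either age.

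With 1 exposure alone, none of the 10 genes passed the test at either age. Antibiotics in saline-injected mice called 0 of the 10 in adults (0.0503% of all genes called) and 0 in adolescents (0.0391%). At an unadjusted p under 0.05 were 4 and 0 of the 10, and 1803 and 1744 of all 17880 genes. Morphine on water called 0 of the 10 in adults (0.475% of all genes called) and 0 in adolescents (0.319%), with 3 and 4 at an unadjusted p under 0.05 (1978 and 2400 of all genes). DESeq2 and limma-voom likewise called 0 of the 10 in these comparisons. Without a filter on low counts edgeR called 1, Tsc22d3 for morphine on water in adolescents. The share of all genes called without the filter is not given here. Both comparisons rest on the same water-saline libraries of an age.

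Fkbp5 was at 0.24 ± 0.12 in adults and 0.12 ± 0.12 in adolescents for antibiotics in saline, and at 0.23 ± 0.12 and 0.15 ± 0.12 for morphine on water (log2, SE; adjusted p between 0.449 and 0.758). Hif3a was at 0.48 ± 0.21 in adults and 0.1 ± 0.22 in adolescents for antibiotics in saline, and at 0.29 ± 0.22 and 0.04 ± 0.22 for morphine on water (SE; adjusted p between 0.436 and 0.952). Plin4 was at 0.85 ± 0.37 in adults and -0.36 ± 0.39 in adolescents for antibiotics in saline, and at 0.57 ± 0.38 and -0.86 ± 0.41 for morphine on water (SE; adjusted p between 0.354 and 0.788). Both adolescent Plin4 values are taken against the group that holds the library at 6.2 CPM; without it (water-saline replicate 5) the value for antibiotics in saline was 0.38 and that for morphine on water -0.12 (adjusted p = 0.869 and 0.96). Tsc22d3 and Errfi1 in adolescents were at 0.32 and 0.21 for morphine on water, against 0.39 and 0.07 with both exposures against neither.

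Whether the exposures together exceeded the sum of each alone on the log2 scale was tested by their interaction. In adults 0 of the 10 genes were called, edgeR called 0 of all genes tested (1214 had an unadjusted p under 0.05), and DESeq2 and limma-voom also called 0 of the 10; the value of Fkbp5 was 0.26 ± 0.16 (SE; adjusted p = 0.793). In adolescents 1 of the 10, Fkbp5, was called, where 1.24% of all genes were, with an interaction of 0.62 ± 0.16 (SE; 1.54-fold; adjusted p = 0.0395). The call was lost in 14 of the 20 fits that left out 1 adolescent library (adjusted p up to 0.106); it held without water-saline replicate 3 or 4, antibiotics-saline replicate 5, water-morphine replicate 4 and antibiotics-morphine replicate 1 or 5. Hif3a was at 0.98 ± 0.29, Plin4 at 1.8 ± 0.55 and Nr3c1 at -0.36 ± 0.1 in adolescents (SE; adjusted p = 0.0732, 0.0809 and 0.0606). The size for Plin4 rested on water-saline replicate 5, without which it was 1.06 (adjusted p = 0.307). Without antibiotics-morphine replicate 5, which also stood apart, all 4 passed (adjusted p between 0.00496 and 0.0326), while without both libraries that stood apart Hif3a and Plin4 did not (0.0952 and 0.163). Nr3c1 also passed without water-saline replicate 3 or 4 (0.0488 and 0.028) and Plin4 without water-saline replicate 1 (0.035). In adults these 3 were at 0.45 ± 0.29 for Hif3a, 0.61 ± 0.5 for Plin4 and -0.25 ± 0.1 for Nr3c1 (SE; adjusted p between 0.641 and 0.852). Averaged over both ages edgeR called 0 of the 10 (0.157% of all genes called), with 5 at an unadjusted p under 0.05 (2209 of all 17880 genes). DESeq2 and limma-voom each called 2, Fkbp5 and Nr3c1, and their shares of all genes called are not given here. The averaged value was 0.44 ± 0.11 for Fkbp5 (SE; adjusted p = 0.0773), which passed without adolescent water-saline replicate 3, adolescent antibiotics-morphine replicate 5 or adult antibiotics-saline replicate 5 (0.0416, 0.00969 and 0.0398). It was -0.3 ± 0.07 for Nr3c1 (SE; adjusted p = 0.0514), which passed without adolescent water-saline replicate 3 or 4, adolescent antibiotics-morphine replicate 5, adult antibiotics-saline replicate 4 or adult water-morphine replicate 4 (between 0.0116 and 0.0497).

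Although more calls were made in adolescents, no gene of the 10 was shown to respond differently by age. For each of the 5 differences between adult and adolescent effects edgeR called 0 of the 10 genes. Of all genes it called 0.0224% for antibiotics in saline, 0% for morphine on water, 0% for morphine on antibiotics, 0.00559% for antibiotics under morphine and 0.0112% for the interaction. At an unadjusted p under 0.05 were at most 2 of the 10, and 1010 to 2030 of all 17880 genes. The adult effect minus the adolescent effect was -0.27 ± 0.16 for Fkbp5 and -0.28 ± 0.28 for Hif3a for morphine on antibiotics, and -0.24 ± 0.16 and -0.15 ± 0.28 for antibiotics under morphine (log2, SE; adjusted p between 0.803 and 0.96). DESeq2 and limma-voom also called 0 of the 10 in each of the 5. In water-saline libraries alone, adults minus adolescents gave 0 calls among the 10 (0.257% of all genes called), with 1 at an unadjusted p under 0.05 (1788 of all genes). DESeq2 and limma-voom also gave 0 calls.

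Over the mean of the 4 treatments, 4 of the 10 genes differed between the ages, where 17.9% of all genes did. Nr3c2 was higher in adults by 0.24 ± 0.04, Nr3c1 by 0.12 ± 0.04 and Plin4 by 0.66 ± 0.19, and Tsc22d3 fell by 0.16 ± 0.05 (log2, SE; adjusted p = 3.78e-05, 0.0153, 0.00988 and 0.0178). These 4 calls held without any single library.

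Of 12 listed genes of the chaperone complex that holds the receptor ready for hormone, 7 were lower and 0 higher for antibiotics under morphine in adolescents, where 4.02% of all genes were called lower and 3.54% higher. Their median was -0.22 on the log2 scale, where the median of all genes was -0.01. Among them were Ppid, an immunophilin of the complex, at -0.46 ± 0.07 (SE; adjusted p = 1.71e-05), the Hsp70-Hsp90 adaptor Stip1 at -0.34 ± 0.06 (0.000259), the Hsp70 regulator Bag1 at -0.29 ± 0.06 (0.00159) and the Hsp110 family member Hspa4 at -0.38 ± 0.08 (0.00174). For morphine on antibiotics 2 of the 12 were lower in adolescents (2.92% of all genes called), Ppid at -0.33 ± 0.07 (adjusted p = 0.00361) and the constitutive chaperone Hspa8 at -0.23 ± 0.07 (0.048). The call of Hspa8 was lost without antibiotics-saline replicate 1, 3, 4 or 5 or antibiotics-morphine replicate 2, 3 or 4 (adjusted p between 0.0626 and 0.211). In adults 0 of the 12 were called in either comparison by edgeR, with 7 and 1 at an unadjusted p under 0.05 for antibiotics under morphine and morphine on antibiotics. At that p were 1434 and 1258 of all 17880 genes. The median of the 12 was -0.15 and -0.06. With 1 exposure edgeR also called 0 of the 12 in adolescents: for morphine on water 11 of 12 were positive (median 0.09, 2 at an unadjusted p under 0.05), and for antibiotics in saline 7 of 12 (median 0.01, 0 at an unadjusted p under 0.05). Of all genes 2400 and 1744 had such a p in these comparisons.

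Of 11 coregulators, the acetyltransferase gene Crebbp rose by 0.31 ± 0.06 for morphine on antibiotics and by 0.23 ± 0.06 for antibiotics under morphine in adolescents (log2, SE; adjusted p = 0.00262 and 0.0153). The CREB coactivator Crtc2 rose by 0.46 ± 0.11 in the second (SE, edgeR adjusted p = 0.00584), and 0 of the 11 fell in either. Of all genes 2.92% were called in the first. In the second 7.56% were called, 3.54% higher and 4.02% lower. In adults 0 of the 11 were called in these comparisons, with 0 and 2 at an unadjusted p under 0.05 (1258 and 1434 of all 17880 genes). With both exposures against neither, Crebbp and Nrip1 rose in adults by 0.25 and 0.36 (log2, edgeR adjusted p = 0.0251 and 0.016). Those calls were lost in 5 and 2 of the 10 fits without 1 library. In adolescents Crebbp, Ep300 and Nrip1 rose by 0.25, 0.21 and 0.27 (adjusted p between 0.00887 and 0.0432). The adolescent Ep300 and Nrip1 calls were lost in 3 and 6 of 10. There 1.19% of all genes were called in adults and 6.94% in adolescents. Of 6 genes of hormone supply and stress peptides, which include the corticosterone-regenerating enzyme Hsd11b1 and the peptide Crh, 5 could be tested. For morphine on antibiotics, for antibiotics under morphine and with 1 exposure, 0 of them were called. Each of those comparisons had at most 1 at an unadjusted p under 0.05 (1258 to 4119 of all 17880 genes). With both exposures against neither, Crhr1 of this list was called in adolescents at -0.29 (log2, edgeR adjusted p = 0.0211). That call was lost in 4 of the 10 fits that left out 1 library.

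Other genes known to respond to glucocorticoids were called in both directions. Of 29 tested outside the 10, morphine on antibiotics in adolescents raised 3 and lowered 3 (2.92% of all genes called), and antibiotics under morphine raised 5 and lowered 0 (7.56%), with medians of 0.05 and 0.11 on the log2 scale. In adults edgeR called 0 higher and 1 lower for morphine on antibiotics (0.213% of all genes called) and 0 for antibiotics under morphine (0.028%). At an unadjusted p under 0.05 were 6 and 3 of the 29, and 1258 and 1434 of all 17880 genes. Raised by antibiotics under morphine were the arrestin-like gene Arrdc2 at 0.65 ± 0.16, the metabolic transcription factor Klf15 at 0.5 ± 0.13, the kinase Map3k6 at 0.54 ± 0.15 and the triglyceride lipase Pnpla2 at 0.37 ± 0.11 (SE; adjusted p between 0.00805 and 0.0278). These 4 calls were each lost without 1 to 3 single libraries: Arrdc2 without antibiotics-morphine replicate 3, Klf15 without antibiotics-morphine replicate 2 or 3, Map3k6 without water-morphine replicate 1 or 2 or antibiotics-morphine replicate 2, and Pnpla2 without water-morphine replicate 1 or antibiotics-morphine replicate 1 or 3 (adjusted p between 0.0541 and 0.124). Klf15 and the clock gene Per1 also rose with both exposures against neither in adolescents, by 0.73 ± 0.13 and 0.64 ± 0.12 (SE, edgeR adjusted p = 0.000351 and 0.000516). Dusp1 and Cdkn1a of the same list, described below, were lower there, at -0.95 and -0.64 (log2, edgeR adjusted p = 6.44e-05 and 3.72e-05). In adults these 2 were at -0.98 and -0.68 (edgeR adjusted p = 0.000147 and 9.75e-05). Of all genes 6.94% were called in this comparison in adolescents and 1.19% in adults.

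The phosphatase gene Dusp1 and the cell cycle inhibitor Cdkn1a, both inducible by glucocorticoids, fell with morphine in most comparisons. On water Dusp1 fell by 1.01 ± 0.15 in adults and 1.18 ± 0.15 in adolescents, and Cdkn1a by 0.61 ± 0.11 and 0.48 ± 0.1 (log2, SE; adjusted p between 7.36e-06 and 0.0138). On antibiotics Cdkn1a fell by 0.62 ± 0.11 in adults and 0.64 ± 0.1 in adolescents (SE; adjusted p = 0.00136 and 0.000112), and Dusp1 by 0.72 ± 0.15 in adolescents (0.00394); Dusp1 on antibiotics in adults was not called. The adolescent call of Cdkn1a on water was lost without water-saline replicate 4 or water-morphine replicate 1 or 5 (adjusted p between 0.0539 and 0.0769) and when the 2 groups were fitted alone (0.0533).

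Within groups, libraries with more Fkbp5 also had more Hif3a. After each group's mean was removed, the correlation of log2 CPM over all 40 libraries was r = 0.55 for Hif3a (permutation p = 0.00107; Spearman rho = 0.55, permutation p = 0.0009), and r = 0.47 without the 2 libraries farthest from the median of Fkbp5 (permutation p = 0.00316). Sgk1, called in none of the 8 comparisons of 1 exposure, had r = 0.48 (permutation p = 0.00873; rho = 0.51, permutation p = 0.00284) and r = 0.52 without these 2 (permutation p = 0.00038). Sult1a1 had r = 0.46 (permutation p = 0.00776; rho = 0.38, permutation p = 0.0331) and r = 0.42 without them (permutation p = 0.0196). Nr3c1 had r = -0.37 (permutation p = 0.0471; rho = -0.28, permutation p = 0.114), which missed the threshold with RLE size factors (permutation p = 0.0503).

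Zbtb16, which was raised with Fkbp5 in adolescents, had r = -0.01 within groups (permutation p = 0.936), and Plin4, Errfi1, Tsc22d3 and Nr3c2 had r of 0.23, 0.23, 0.32 and 0.18 (permutation p between 0.0571 and 0.292); that of Tsc22d3 was 0.35 without the 2 farthest libraries (permutation p = 0.0404). The 9 relations were tested two-sided by permuting libraries within groups, and their p-values are not adjusted for their number. Over 17879 genes the median r with Fkbp5 was -0.01 and 95% of the values lay between -0.36 and 0.35; 0.0895% of genes had an r at least as high as Hif3a, 0.324% as Sgk1 and 0.425% as Sult1a1. These libraries share depth and tissue composition, whose part in the relations was not tested.

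**Figure D4:**
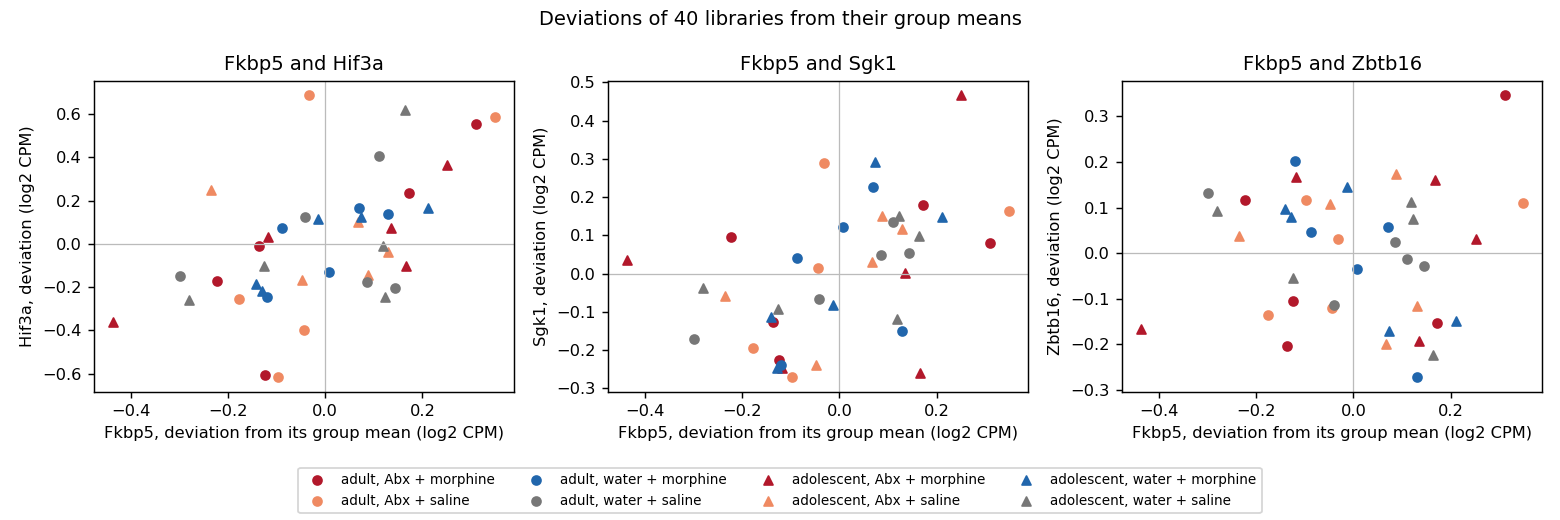
Deviation of each of the 40 libraries from its group mean for Fkbp5 (x axis, log2 CPM) and for Hif3a, Sgk1 or Zbtb16 (y axis, log2 CPM); colours give the treatment, circles adults and triangles adolescents. The points rise to the right for Hif3a (r = 0.55) and Sgk1 (r = 0.48) and show no slope for Zbtb16 (r = -0.01).

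Across all 40 libraries with the group differences kept in, Hif3a was the gene most like Fkbp5 of 13729 ranked, with r = 0.86, given as a description with no test. Of the other members Sult1a1 stood at place 60 (r = 0.65), Plin4 at 94 (0.62), Zbtb16 at 107 (0.61) and Tsc22d3 at 216 (0.56), while Errfi1 stood at 3717 (0.15) and Nr3c1 at 10805 (-0.25). Outside the 10 genes the most like were the kinase gene Eef2k (r = 0.83), which regulates translation elongation, the astrocyte enzyme gene Etnppl (0.8), Fam214a (0.78), the cold-inducible RNA-binding protein gene Rbm3 (0.76; uncertain, as an antisense gene overlaps it), Ttc39c (0.76), Ccdc149 (0.75), Tub (0.75) and Arhgef10l (0.74). Within groups these 8 had r between 0.21 and 0.59. Etnppl had group means of 36.3 CPM in adult antibiotics-morphine libraries, 29.7 in antibiotics-saline, 17.1 in water-morphine and 17.7 in water-saline, and 45.9, 25, 18.7 and 21.2 CPM in the same groups of adolescents.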

How the data were processed

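Raw counts for 56980 genes in 40 libraries came as 1 deposited table. Per the submitters' processing notes, the tools were STAR 2.7.10a and DESeq2, with no role named, and the build was mm10; annotation and strand setting were not given in the sources used. Identifiers were matched to symbols without their version (52073 matches, 91.4%); exon lengths came from the GENCODE annotation of the same build. The table holds 0 rows without a gene. Replicate libraries differed by more than counting noise (chi-square per gene at least 2.16 in every pair), so none was treated as a duplicate.

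Counts were tested in R 4.3.3 with edgeR 4.0.16: filterByExpr (minimum count 10, minimum total 15) kept 17880 genes, TMM scaled the libraries, and a robust quasi-likelihood fit of all 8 groups shared 1 estimate of the spread (biological coefficient of variation 9.14%). Benjamini-Hochberg adjustment ran over all genes tested, and "called" means an adjusted p under 0.05, by edgeR where no tool is named. CPM of members are TMM-scaled; summed marker levels are CPM of the raw totals. The script was checked on simulated counts with known changes. The members, the gene lists and the named genes were chosen with earlier results of these data known, and 5 of the 22 comparisons were added after values had been seen; no list is given as independent evidence. Called genes named outside the members were drawn from the up to 4 called genes of a list with the smallest p in a comparison. Not all of those are named. Also named are the 8 genes most correlated with Fkbp5. The correlations used 100000 permutations. Alternatives were RLE size factors, no filter, a minimum of 1 CPM in 5 libraries, limma-voom (limma 3.58.1) with quality weights, DESeq2 1.42.0, only the compared groups, a replicate block, and single libraries left out. Leaving out both libraries that stand apart was added after seeing the data.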

Additional observations from a re-analysis of the deposited data

Results flagged for a closer look

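In 3 of the 80 sets formed by a gene of the 10 and a group, 1 library lay far from the other 4; chance alone gives about 1 in 20 such sets. Fkbp5 was at 34.3 CPM in adult antibiotics-saline replicate 5, where the other 4 libraries lay between 23.7 and 26.3 CPM. Errfi1 was at 32.3 CPM in adolescent antibiotics-saline replicate 1, where the others lay between 24.3 and 25.8 CPM. Hif3a was at 10 CPM in adolescent water-saline replicate 5, where the others lay between 5.36 and 6.42 CPM; this is the library with the highest summed astrocyte markers of its group. The cause of these values was not tested.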

How the results depend on the processing

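Of 1076 recomputed values of single genes under another setting, 988 kept direction and side of the threshold, 66 newly passed, 20 no longer passed and 2 reversed; of 1810 with 1 library left out, 1676 kept both, 23 newly passed, 103 no longer passed and 8 reversed. The 2 that reversed are Plin4 for antibiotics in saline in adolescents, at 0.38 without both libraries that stand apart and 0.28 with limma-voom; with single libraries left out it ran from -0.6 to 0.38, Hif3a for morphine on water in adolescents from -0.04 to 0.23, and Nr3c2 for morphine on antibiotics in adults from -0.03 to 0.08. The share of all genes called under each alternative is not given here. Counts of called members therefore do not show whether the members changed more than other genes. Dropping the filter took the adjusted p of Hif3a for antibiotics under morphine in adults from 0.0815 to 1.49e-06. Its log2 fold change was 0.93 with the filter and 0.94 without it. Counts of called members changed as follows. Without a filter on low counts they were 1 for morphine on water in adolescents, 4 for morphine on antibiotics in adults and 5 in adolescents, 4 for antibiotics under morphine in adults, 4 for the adolescent interaction and 4 for the interaction averaged over ages. With only the compared groups fitted they were 5 for morphine on antibiotics and 7 for antibiotics under morphine in adolescents, 1 for antibiotics under morphine in adults and 2 for the adolescent interaction. With limma-voom they were 2 for morphine on antibiotics in adults and 5 in adolescents, 2 for antibiotics under morphine in adults, 2 for the adolescent interaction and 2 for the averaged one. With DESeq2 they were 2 for morphine on antibiotics and 3 for antibiotics under morphine in adults, 3 for the adolescent interaction and 2 for the averaged one; it gave no adjusted p for Plin4 in 6 comparisons. Without both libraries that stand apart, an alternative added after seeing the data, they were 3 for each of these comparisons in adults, 2 for the adolescent interaction and 2 for the averaged one. The cause of these differences was not tested. With single libraries left out the count ran over 2 to 4 for morphine on antibiotics, 3 to 5 for antibiotics under morphine and 0 to 4 for the interaction in adolescents, 0 to 2 and 0 to 1 for the first 2 in adults, 5 to 6 for antibiotics under morphine and 0 to 2 for the interaction averaged over ages, and 4 to 6 for both exposures against neither in adolescents. Of 60 same-numbered pairs of libraries of an age, 4 had a correlation of their deviations from the group means above 0.1 (range -0.16 to 0.2). Pairs with different numbers were not computed, so these values do not decide whether replicate numbers pair the libraries. With the replicate block the count was 2 for the adolescent interaction and 1 for antibiotics under morphine in adults, and elsewhere within 1.5 times of the count without it. Low counts limit Plin4 most, at 5 to 114 per library.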
